A study of Mus musculus with 7 samples.

Results

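The TNF superfamily ligands and receptors were followed in RNA from medullary thymic epithelial cells (mTECs), the stromal cells of the thymic medulla that present tissue antigens to developing T cells. Members were the protein-coding genes whose symbol begins with Tnfsf or Tnfrsf and a digit, together with Tnf, Lta, Ltb, Ltbr, Fas, Fasl, Cd27, Cd70, Eda and Edar. This rule found 41 genes, 17 ligands and 24 receptors, among the 55536 genes of the deposited table. EPCAM-positive mTECs were sorted fresh from mouse thymus, and their RNA was read by SMART-seq, a chemistry that copies full-length transcripts from small numbers of cells. The Cre-positive group (libraries 45, 76 and 80) had the genotype Cre(+) Ikzf1fl/fl Pou2f3-/-, and the Cre-negative group (libraries 46, 48, 75 and 77) carried the same floxed Ikzf1 and null Pou2f3 alleles without Cre. Both groups therefore lacked Pou2f3, the factor that tuft cells need. The comparison is meant to address what Ikaros, the zinc finger factor encoded by Ikzf1, does to mTEC expression on a background meant to lack tuft cells. No group had Cre without floxed Ikzf1, so Cre itself and deletion of Ikzf1 cannot be told apart. The sources used here give neither the Cre driver nor the floxed exon nor the age of the animals. Whether every library comes from its own animal is not stated, and p-values therefore reflect spread among libraries that may be technical.

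Ligands of this superfamily are mostly trimeric proteins held on the cell surface or shed from it, and their receptors pass the signal on through TRAF adaptors to NF-kB or, in receptors with a death domain, to caspases. In the thymic medulla, RANK (Tnfrsf11a), CD40 and the lymphotoxin beta receptor (Ltbr) on epithelial cells receive RANKL (Tnfsf11), CD40 ligand and lymphotoxin from lymphoid cells, and these signals drive mTEC growth and maturation. Osteoprotegerin (Tnfrsf11b) is a soluble decoy that binds RANKL.

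Recovered read totals were 11383465 to 11623062 in Cre-positive libraries and 9815958 to 12599078 in Cre-negative libraries. Mitochondrial genes took 6.40% to 6.94% of reads in Cre-positive and 4.77% to 5.41% in Cre-negative libraries, and 17169 to 18014 against 19417 to 20467 genes had at least 10 reads. The groups did not overlap in either measure, and its part in the results below was not tested. Ikzf1 itself stood at 1310, 1829 and 1678 normalized counts in Cre-positive cells, against 1119, 1150, 1147 and 1219 in Cre-negative cells (log2 fold change 0.46, limma adjusted p = 0.0916). A count over the whole gene does not check the deletion, since reads from exons outside the floxed part are still counted. Pou2f3, null in both groups, had 0.0 to 17.8 normalized counts in Cre-positive and 1.8 to 27.9 in Cre-negative libraries. The mTEC genes Aire, Fezf2, Epcam, Krt5 and Krt8 were read in every library, and Ccl21a was listed at 0 in all of them. Y-linked genes summed to 3938 normalized counts in Cre-negative 48 and to at most 1.0 in each other library. Cre-positive 76 stood apart in markers of other cells, with the highest sums of the 8 B cell markers (2274) and of the 11 thymocyte markers (2664). Of that B cell sum, the plasma cell gene Jchain made up 1811.

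Of the 41 members, 40 reached the minimum mean of 5 normalized counts across libraries and were tested. The death ligand gene Fasl was left out, with 1 read in Cre-positive 80 and none in any other library. The members just inside the minimum were Tnfsf8, the CD30 ligand, at a mean of 5.64, and Tnfsf14, which encodes LIGHT, at 8.56.

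Among the 40 tested members, 8 differed between genotypes at a limma adjusted p under 0.05 (20%), beside 13.8% of all 22878 genes tested and 15.6% of the tested protein-coding genes. Tnfsf13, Tnfrsf12a and Tnfrsf8 were higher in Cre-positive cells, and the background for higher calls was 4.66%. Lta, Tnf, Fas, Tnfrsf13c and Tnfrsf17 were lower, beside 9.11% of all tested genes. The groups did not overlap in 9 members (22.5%), these 8 and Tnfrsf9, beside 25.3% of all tested genes. The share of members called was thus of the same order as the background, and the values of single members carry the description below. All fold changes are Cre-positive over Cre-negative on the log2(normalized count + 1) scale. In RNA from pooled sorted cells, fewer cells of a type and less RNA per cell cannot be told apart.

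**Figure D1:**
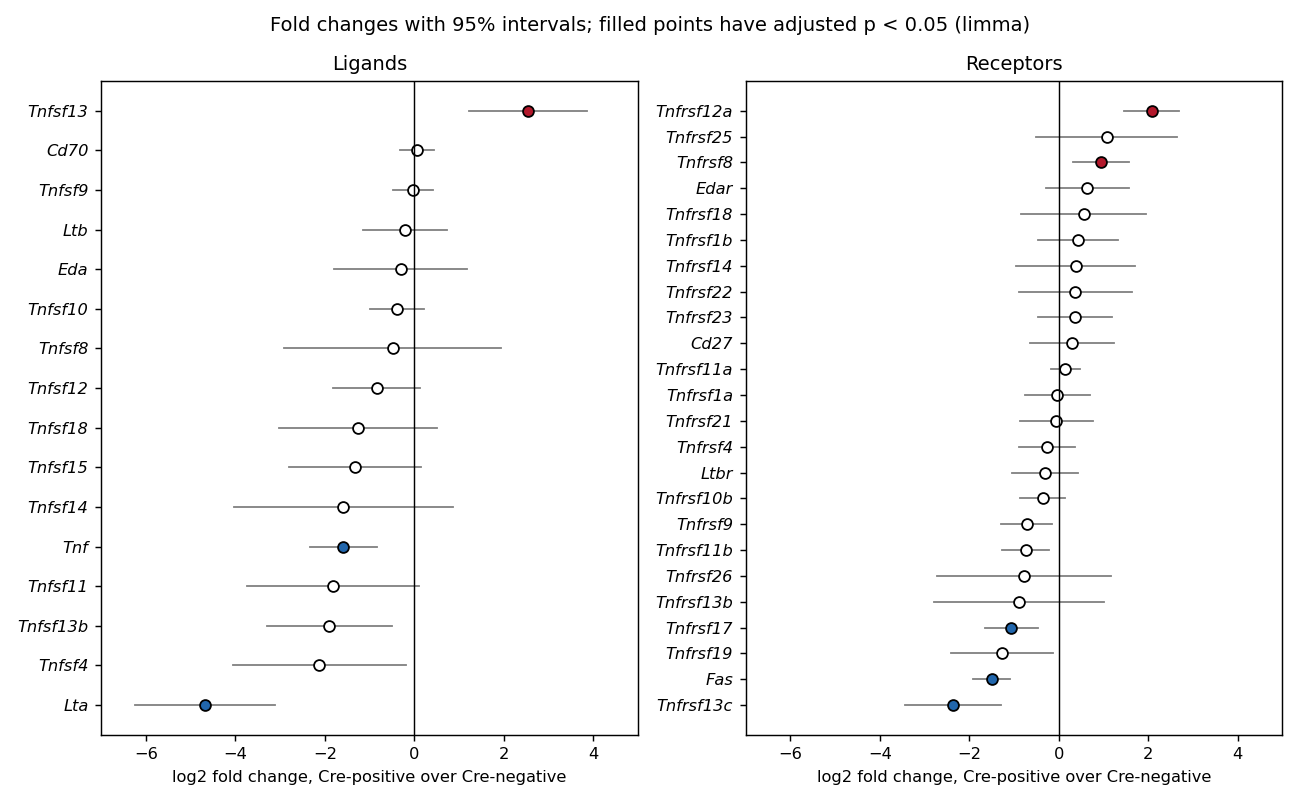
Log2 fold change of each tested member, Cre-positive over Cre-negative, with its 95% interval (limma); ligands stand left and receptors right, and filled points have an adjusted p under 0.05. Of the 16 tested ligands, 14 lie left of 0, and the receptors spread to both sides.

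Most ligands lay below 0 and the receptors on both sides of it, and the difference between these sets was not tested. The median log2 fold change was -1.05 over the 16 tested ligands, -0.04 over the 24 receptors and -0.10 over all tested genes. Below 0 lay 14 ligands (87.5%) and 13 receptors (54.2%), beside 54.7% of all tested genes. The median over all genes depended on level, and at a minimum mean of 20 normalized counts it was -0.002. The ligands were not compared with genes of matched level. Only 2 of the ligands below 0 were called, and many of the others were read at low levels with wide intervals.

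The lymphotoxin and TNF genes lie side by side on chromosome 17 and encode ligands of neighbouring function. Lta encodes the soluble lymphotoxin alpha, Tnf encodes TNF itself, and Ltb encodes the membrane partner that joins lymphotoxin alpha in the ligand of Ltbr. Tnf and Lta stand on the minus strand with 1157 bp between them, and Ltb lies 3060 bp from Tnf on the plus strand. The 250 bases before the RefSeq transcription starts of both called genes (GRCm38.p6, minus strand), chr17:35205352-35205601 and chr17:35202008-35202257, are shown because these neighbours were lower together. Capitals mark the 6-letter Ikaros core motif TGGGAA on either strand.

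Lta: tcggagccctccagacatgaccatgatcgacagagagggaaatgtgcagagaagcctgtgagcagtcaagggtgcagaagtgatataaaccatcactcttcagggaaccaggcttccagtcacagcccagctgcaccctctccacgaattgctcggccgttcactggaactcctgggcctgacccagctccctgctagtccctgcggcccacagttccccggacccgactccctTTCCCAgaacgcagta
Tnf: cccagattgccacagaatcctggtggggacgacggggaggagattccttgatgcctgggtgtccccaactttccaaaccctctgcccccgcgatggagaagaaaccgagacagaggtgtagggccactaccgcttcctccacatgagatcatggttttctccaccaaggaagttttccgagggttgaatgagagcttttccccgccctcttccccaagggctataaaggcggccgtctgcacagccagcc

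The Lta window held the core motif on the opposite strand, from -16 to -11 relative to the start, and the Tnf window held none.

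Lta had 20.9, 1.0 and 7.3 normalized counts in Cre-positive cells, against 300.0, 240.3, 91.0 and 166.5 in Cre-negative cells. The groups did not overlap, and Cre-negative 75, the lowest of its group, was still far above Cre-positive 45. The means were 9.73 ± 10.2 (SD, n = 3) and 199 ± 90.6 (SD, n = 4), a ratio of 0.0488. The log2 fold change was -4.68 ± 0.73 (SE, limma adjusted p = 0.00135). Since the Cre-positive libraries held 20, 1 and 7 Lta reads, the size of this change is less certain than its direction, and it ran from -5.49 to -3.76 over 17 alternative settings.

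Tnf had 142, 66.1 and 146 normalized counts in Cre-positive cells, against 312, 505, 337 and 239.9 in Cre-negative cells. Every Cre-positive library lay below every Cre-negative library, at a ratio of means of 0.339. Its log2 fold change was -1.59 ± 0.34 (SE, limma adjusted p = 0.00924).

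Ltb, the neighbour of both, was not called. It had 339.6, 261 and 326 normalized counts in Cre-positive cells, against 252, 154, 568 and 712 in Cre-negative cells, so the Cre-positive values lay inside the Cre-negative range. The log2 fold change was -0.21 ± 0.43 (SE, limma adjusted p = 0.803), with 95% limits of -1.14 and 0.73.

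The ligand APRIL, encoded by Tnfsf13, supports plasma cells and was the called ligand that was higher. It had 36.6, 80.1 and 64.4 normalized counts in Cre-positive cells, against 6.7, 11.8, 9.0 and 9.3 in Cre-negative cells. All Cre-positive libraries exceeded all Cre-negative libraries, with means of 60.4 ± 22 (SD, n = 3) and 9.2 ± 2.09 (SD, n = 4), a ratio of 6.56. The log2 fold change was 2.54 ± 0.61 (SE, limma adjusted p = 0.0155). The call was lost without Cre-positive 76 (limma adjusted p = 0.0684) and without Cre-positive 80 (limma adjusted p = 0.0554).

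Tnfsf13 lies at chr11:69682846-69685784 on the minus strand and shares its exons with other annotated genes. The antisense gene Tnfsf13os covers 221 bp of them and had 79.4, 98.1 and 112 normalized counts in Cre-positive cells, against 67.9, 82.7, 29.7 and 36.2 in Cre-negative cells. The readthrough gene Tnfsfm13 covers 983 bp and had 1.0 to 11 counts in Cre-positive and 0.0 to 5.4 in Cre-negative libraries. How strand was handled in counting is not given. Reads of Tnfsf13 and its antisense partner therefore cannot be told apart within the shared 221 bp, of 1637 bp of Tnfsf13 exon. Within the 983 bp shared with Tnfsfm13, which lies on the same strand, strand cannot separate the reads in any case. Tnfsf13os did not pass the test (log2 fold change 0.93, limma adjusted p = 0.196).

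BAFF, encoded by Tnfsf13b, is the B cell survival factor related to APRIL. It had 38.7, 10.0 and 11.4 normalized counts in Cre-positive cells, against 36.0, 84.7, 137.8 and 41.4 in Cre-negative cells, and the groups overlapped through Cre-positive 45. Its log2 fold change of -1.90 had the opposite sign to that of Tnfsf13 and did not pass the threshold (limma adjusted p = 0.0696). The call was reached without Cre-positive 45 (limma adjusted p = 0.0302) and with DESeq2 on the recovered reads (adjusted p = 0.0240).

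RANKL, OX40 ligand and GITR ligand are ligands through which lymphoid and antigen-presenting cells signal to their partners. Tnfsf11 (RANKL) had 4.2, 33.0 and 3.1 normalized counts in Cre-positive cells, against 69.6, 24.6, 10.8 and 46.5 in Cre-negative cells. Cre-positive 76 lay within the Cre-negative range, and the test was not passed at a log2 fold change of -1.82 ± 0.89 (SE, limma adjusted p = 0.199). Tnfsf4 (OX40 ligand) had 5.2, 3.0 and 4.2 counts in Cre-positive cells, against 36.0, 40.4, 3.6 and 32.1 in Cre-negative cells. It was low in all Cre-positive libraries and in Cre-negative 75, and its log2 fold change of -2.12 did not pass (limma adjusted p = 0.138). Without Cre-negative 75 it was -2.87 and passed (limma adjusted p = 0.0294). Tnfsf18 (GITR ligand) had 2.1 to 29.3 counts in Cre-positive and 22.7 to 56.8 in Cre-negative libraries (log2 fold change -1.27, limma adjusted p = 0.339).

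The remaining low ligands did not pass the test. Tnfsf15, the ligand TL1A, had a log2 fold change of -1.33 (limma adjusted p = 0.223), and Tnfsf12, which encodes TWEAK, had -0.84 (limma adjusted p = 0.243). For Tnfsf14 the value was -1.58, with 95% limits of -4.03 and 0.86. Tnfsf8 and Eda, the ectodysplasin gene, had -0.48 and -0.30. TRAIL, encoded by Tnfsf10, had 148 to 208 normalized counts in Cre-positive and 165 to 281 in Cre-negative libraries, a log2 fold change of -0.38 with 95% limits of -0.99 and 0.22.

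By contrast, the most abundant ligands were close between genotypes. Cd70, the ligand of the costimulatory receptor CD27, had 1059, 1254 and 1318 normalized counts in Cre-positive cells, against 1064, 1138, 1399 and 1047 in Cre-negative cells. Its log2 fold change was 0.06, with 95% limits of -0.32 and 0.44. Tnfsf9, the ligand of CD137, had 540.2, 545 and 624 counts in Cre-positive cells, against 598, 609, 709 and 443 in Cre-negative cells, a log2 fold change of -0.03 with limits of -0.48 and 0.42. The ranges of the groups overlapped in both genes.

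**Figure D2:**
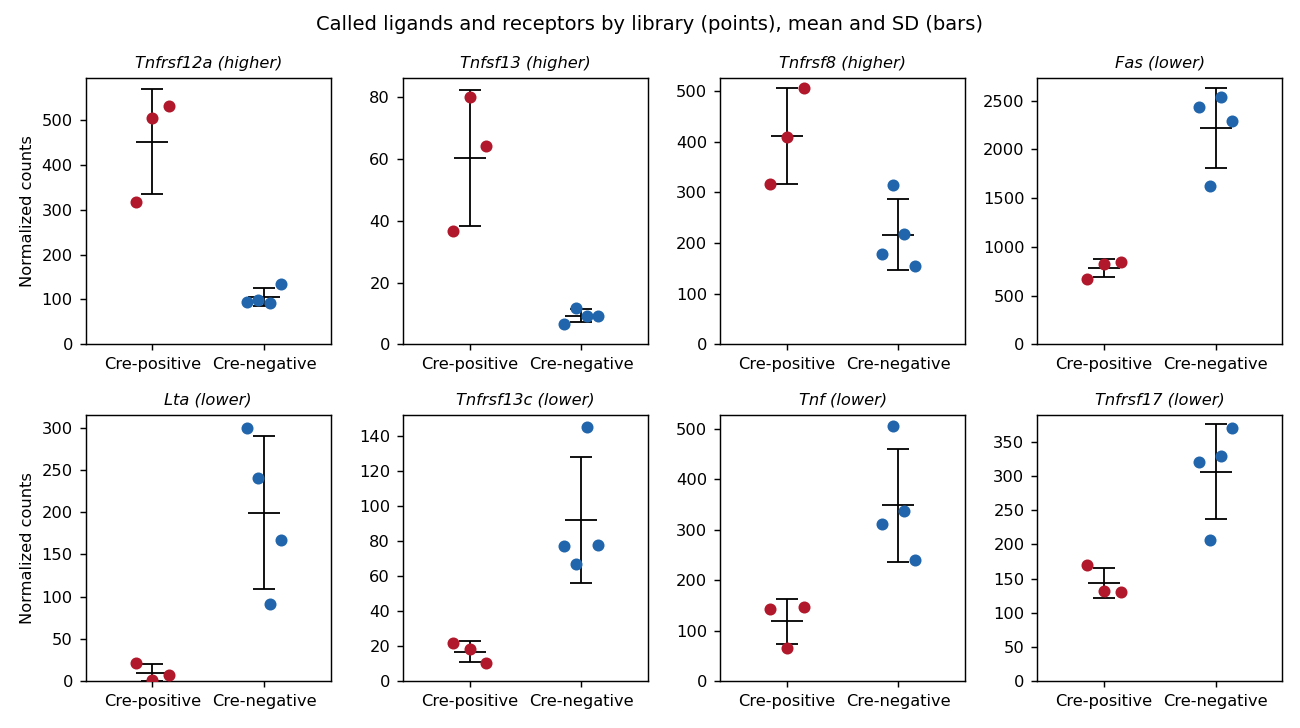
Normalized counts (vertical axis from 0) of the 8 called members in the 3 Cre-positive libraries (left, red) and the 4 Cre-negative libraries (right, blue); points are libraries and bars are the mean and SD. No panel shows overlap between the groups, and Lta in Cre-positive cells lies between 1.0 and 20.9.

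Among the receptors, Fas had the smallest adjusted p of all members. Fas is the death receptor that starts caspase signalling when it binds Fas ligand. The 250 bases before its RefSeq start, chr19:34290409-34290658 on the plus strand of GRCm38.p6, held the core motif from -90 to -85, in capitals here.

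Fas: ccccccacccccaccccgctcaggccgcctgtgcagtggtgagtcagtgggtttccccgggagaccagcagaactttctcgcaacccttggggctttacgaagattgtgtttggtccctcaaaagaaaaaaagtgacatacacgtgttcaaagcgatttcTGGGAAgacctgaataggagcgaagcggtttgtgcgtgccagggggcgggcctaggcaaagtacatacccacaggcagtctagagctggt

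Fas had 672, 823 and 841 normalized counts in Cre-positive cells, against 2433, 1625, 2533 and 2293 in Cre-negative cells. Cre-negative 48 was the lowest of its group and still well above every Cre-positive library. The means were 779 ± 92.9 (SD, n = 3) and 2221 ± 409 (SD, n = 4), and the log2 fold change was -1.50 ± 0.19 (SE, limma adjusted p = 0.000364). Over the 17 alternative settings it ran from -1.70 to -1.39 and was called in each of them.

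Fn14, encoded by Tnfrsf12a, is the receptor of TWEAK and is known to be induced in epithelia under growth signals and injury. Its promoter, chr17:23677450-23677699 on the minus strand, is shown as that of the called receptor with the smallest adjusted p among those that were higher, and it held no match to the core motif.

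Tnfrsf12a: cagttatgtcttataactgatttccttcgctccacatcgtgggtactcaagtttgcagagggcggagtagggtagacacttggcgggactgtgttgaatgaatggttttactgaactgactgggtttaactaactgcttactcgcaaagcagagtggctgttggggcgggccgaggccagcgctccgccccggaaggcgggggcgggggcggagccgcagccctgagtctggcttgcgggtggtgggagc

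In Cre-positive cells Tnfrsf12a had 318, 506 and 533 normalized counts, against 93.9, 98.5, 91.9 and 134 in Cre-negative cells. The groups were far apart, and Cre-negative 77 stood above the other Cre-negative libraries. Means of 452 ± 117 (SD, n = 3) and 105 ± 20.01 (SD, n = 4) gave a ratio of 4.32, and the log2 fold change was 2.08 ± 0.29 (SE, limma adjusted p = 0.000613). Its ligand gene Tnfsf12 had 24.9 to 56.4 counts in Cre-positive and 49.6 to 88.6 in Cre-negative libraries and was not called. Of the 1515 bp of Tnfsf12 exon, 731 bp are shared with Tnfsfm13 on the same strand, where strand cannot separate reads.

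CD30, the product of Tnfrsf8, is a receptor best known from activated lymphocytes. Tnfrsf8 had 317, 409 and 507 normalized counts in Cre-positive cells, against 178.5, 314, 218 and 154 in Cre-negative cells. Cre-positive 45 lay only just above Cre-negative 48. The log2 fold change was 0.95 ± 0.29 (SE, limma adjusted p = 0.0448), and this call was held in 9 of the 17 alternative settings. The values that lost it are given among the alternatives after the report. Its promoter, chr4:145315165-145315414 on the minus strand of GRCm38.p6, is shown because it was the only called promoter with a match to the kB motif, the site type of NF-kB, marked in capitals.

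Tnfrsf8: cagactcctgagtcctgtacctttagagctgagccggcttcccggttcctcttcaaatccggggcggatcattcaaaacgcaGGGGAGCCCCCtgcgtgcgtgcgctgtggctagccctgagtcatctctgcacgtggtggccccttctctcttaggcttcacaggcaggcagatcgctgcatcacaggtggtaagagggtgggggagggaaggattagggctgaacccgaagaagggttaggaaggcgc

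The receptors of APRIL and BAFF are BCMA (Tnfrsf17), BAFF-R (Tnfrsf13c) and TACI (Tnfrsf13b), known from B cells and plasma cells. Tnfrsf13c had 21.9, 18 and 10.4 normalized counts in Cre-positive cells, against 77.1, 67.0, 145 and 77.5 in Cre-negative cells. All Cre-positive libraries were below the Cre-negative range, and the log2 fold change was -2.37 ± 0.50 (SE, limma adjusted p = 0.00759). For Tnfrsf17 the counts were 169, 132 and 129.8 in Cre-positive cells, against 320.1, 207, 329.7 and 370.1 in Cre-negative cells. These groups did not overlap either, and the log2 fold change was -1.07 ± 0.27 (SE, limma adjusted p = 0.0224). Leaving out Cre-positive 76 or 80, or Cre-negative 46, 75 or 77, raised that adjusted p to between 0.0505 and 0.0663. Tnfrsf13b had 3.1 to 13.0 counts in Cre-positive and 4.5 to 35.5 in Cre-negative libraries (log2 fold change -0.89, limma adjusted p = 0.553).

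B cell markers are given here because these receptors are B lineage genes. Of the 8 B cell markers, 2 were lower (25%, beside 9.11% of all tested genes) and 6 did not pass. Pax5, the B lineage factor, had a log2 fold change of -1.64 (limma adjusted p = 0.0220), and the kinase gene Blk had -2.95 (limma adjusted p = 0.0149). The summed markers were 279 to 2274 normalized counts in Cre-positive and 499.9 to 735 in Cre-negative libraries (two-sided exact permutation test, p = 0.686, n = 3 and 4). The mean of the log2 values over the list, in which Jchain weighs no more than the others, differed by -0.9997 (exact permutation p = 0.0571, the smallest that 3 against 4 can give). Named after its values were seen, Cd79b, a subunit of the B cell receptor, had the opposite sign and was not called (1.04, limma adjusted p = 0.0522). None of the 8 was at 0 in every library. The part of B cell RNA in the BAFF and APRIL receptor results was not tested.

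The thymic medulla receptors themselves were not called. Tnfrsf11a (RANK) had 1782, 2206 and 1825 normalized counts in Cre-positive cells, against 1808, 1634, 1785 and 1745 in Cre-negative cells. Cre-positive 76 was the highest and the other libraries lay close together, with a log2 fold change of 0.15 ± 0.15 (SE, limma adjusted p = 0.575) and 95% limits of -0.18 and 0.48. Tnfrsf11b (osteoprotegerin) had 1752, 2581 and 1449 counts in Cre-positive cells, against 4263, 3564, 2173 and 2888 in Cre-negative cells. Cre-positive 76 exceeded Cre-negative 75, and the log2 fold change of -0.74 ± 0.24 (SE) missed the threshold (limma adjusted p = 0.0608). It passed without Cre-positive 76 (-0.97, limma adjusted p = 0.0312) and without Cre-negative 75 (-0.91, limma adjusted p = 0.0262).

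Ltbr had 98.2, 63.1 and 127 normalized counts in Cre-positive cells, against 136, 111, 107 and 109 in Cre-negative cells. The groups overlapped, and the log2 fold change was -0.32 ± 0.34 (SE, limma adjusted p = 0.591). The TNF receptor gene Tnfrsf1a had 291.5, 284 and 141 counts in Cre-positive cells, against 193, 382, 185 and 216 in Cre-negative cells. It showed no shift beyond the spread, with a log2 fold change of -0.04 ± 0.34 (SE, limma adjusted p = 0.962) and 95% limits of -0.77 and 0.70. The other TNF receptor, Tnfrsf1b, had a log2 fold change of 0.42 (limma adjusted p = 0.546).

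Tnfrsf9 (CD137) had 291, 391 and 358 normalized counts in Cre-positive cells, against 501, 393, 823 and 642 in Cre-negative cells. Its groups did not overlap, though Cre-positive 76 and Cre-negative 48 were nearly equal, and the log2 fold change of -0.72 ± 0.26 (SE) missed the threshold (limma adjusted p = 0.0840). Without Cre-negative 48 it was -0.90 and passed (limma adjusted p = 0.0370). Tnfrsf19, which encodes TROY, had a log2 fold change of -1.27 (limma adjusted p = 0.133).

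The 11 remaining receptors had log2 fold changes between -0.78 (Tnfrsf26) and 1.07 (Tnfrsf25, the death receptor of TL1A), and none passed the test. Their adjusted p ran from 0.333 to 0.947 (limma). Among them, the costimulatory receptors Tnfrsf4 (OX40), Tnfrsf18 (GITR) and Cd27 had log2 fold changes of -0.27, 0.56 and 0.29. Tnfrsf10b, the mouse TRAIL death receptor, had -0.36, and Tnfrsf22 and Tnfrsf23, which encode decoy receptors for TRAIL in mouse, had 0.36 and 0.35. Tnfrsf14 (HVEM, which binds LIGHT), Tnfrsf21 (a death domain receptor) and Edar, the receptor of ectodysplasin, had 0.37, -0.05 and 0.64.

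**Figure D3:**
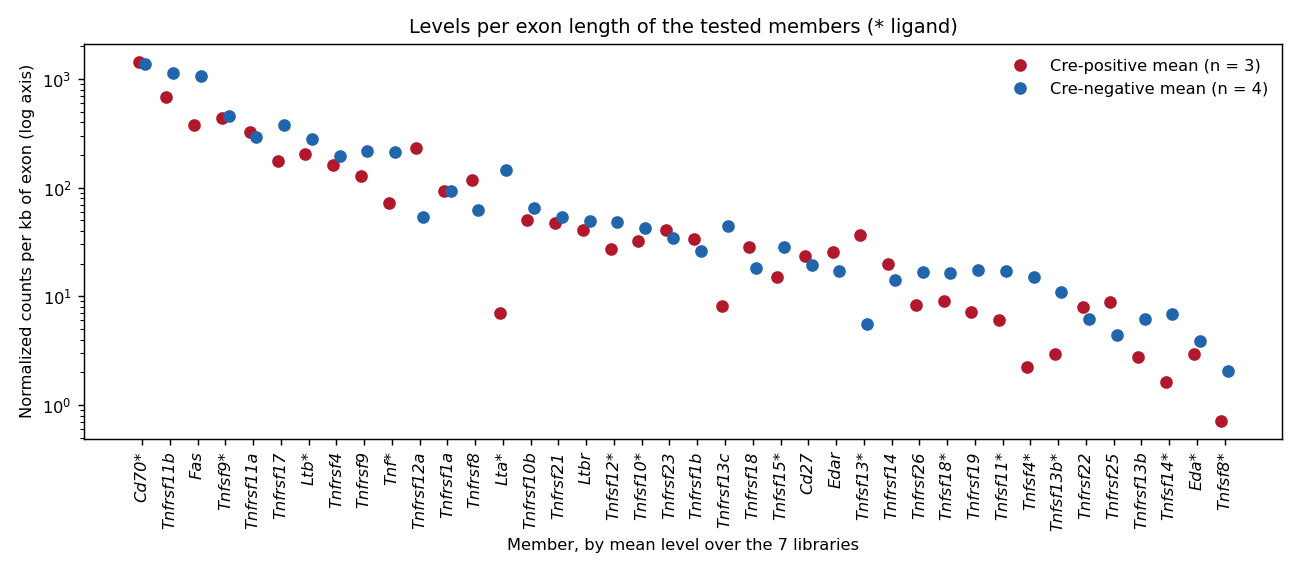
Mean normalized counts per kb of exon (log axis) of the 40 tested members in Cre-positive (red, n = 3) and Cre-negative (blue, n = 4) libraries, ordered by the mean over the 7 libraries; ligands carry an asterisk. The order runs from Cd70 at 1405 to Tnfsf8 at 1.48 counts per kb.

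Levels were compared between genes per kb of exon, with the exons of all annotated transcripts of a gene merged. That length need not be the length of the transcripts present, and the order depends on it. By mean counts over the 7 libraries, Tnfrsf11b (2667), Tnfrsf11a (1826) and Fas (1603) stood above Cd70 (1183). Per kb, Cd70 was highest at 1405 normalized counts over the 7 libraries, ahead of Tnfrsf11b at 946, Fas at 777, Tnfsf9 at 450.3 and Tnfrsf11a at 305. BCMA (Tnfrsf17) followed at 291 and Ltb at 246. The order differed between the groups. Within the Cre-positive group, Tnfsf9 (442 counts per kb) stood above Fas (378), and Tnfrsf12a (234) and Ltb (204) above Tnfrsf17 (176). Within the Cre-negative group, Fas had 1077, Tnfsf9 457, Tnfrsf17 376, Ltb 278 and Tnfrsf12a 54.2. The ligands RANKL and BAFF were near the low end, at 12.3 and 7.49 counts per kb.

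Ligands and their receptors can be read side by side. In the Fas pair the receptor was lower and the ligand was at the limit of detection, where 0 to 1 read per library allows no fold. For TWEAK and Fn14 the receptor was higher and the ligand was not called, with log2 fold changes of 2.08 and -0.84. For CD30 the receptor was higher, and its ligand Tnfsf8 had 2.1 to 3.1 normalized counts in Cre-positive and 0.0 to 20.7 in Cre-negative libraries. The CD70 pair showed log2 fold changes of 0.06 for the ligand and 0.29 for Cd27, neither called. In the APRIL group the ligand was higher and its receptor Tnfrsf17 was lower.

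Promoter sequences were found for 33 members. The core motif TGGGAA, searched on both strands of the 250 bases before the start, was in 7 of the 33 and in 2 of the 8 called members (Lta and Fas). Of all 32851 RefSeq promoters of that length, 21.6% held it. The kB motif was in 4 of the 33 and in 1 of the 8 called members, beside 7.25% of all promoters. For both motifs a member was counted if any of its promoters held a match, while the background counts single promoters. The kB matches of Tnfrsf9 and Tnfrsf25 were not in all of their promoters. A match is a description of the letters and not a bound site.

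Most adaptor and effector genes below the receptors did not pass the test. The shares called were 25% of TRAF adaptors, 7.69% of death domain genes and 17.6% of the NF-kB arm, beside 13.8% of all tested genes. Of the 8 TRAF adaptors, Tank was higher (log2 fold change 0.62, limma adjusted p = 0.0188) and Traf1, itself an NF-kB target, was lower (-1.08, limma adjusted p = 0.0172). Among 13 death domain adaptors and effectors, the caspase inhibitor gene Cflar was lower (-0.65, limma adjusted p = 0.0246) and the other 12 were not called. Of 17 genes of the NF-kB arm, Tnfaip3, an inhibitor of the pathway, was higher (1.02, limma adjusted p = 0.0137), and the subunit genes Nfkb1 (-1.02, limma adjusted p = 0.00421) and Rel (-1.20, limma adjusted p = 0.00639) were lower. Of that list 16 genes (94.1%) had a log2 fold change below 0, beside 54.7% of all tested genes. The list mixes genes that activate and genes that inhibit the pathway, so this share gives no direction of its activity. Named after its values were seen, the inhibitor gene Cyld had the opposite sign to Tnfaip3 and was not called (-0.57, limma adjusted p = 0.0560). Without overlap between the groups, 9 were lower and 1 higher, beside 14.5% and 10.8% of all tested genes. The median of the list was -0.33, beside -0.10 over all tested genes.

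Cd40, the mTEC receptor named outside the Tnfsf and Tnfrsf symbols, had 1694, 1525 and 2334 normalized counts in Cre-positive cells, against 2268, 1983, 3204 and 2889 in Cre-negative cells. The groups overlapped and the log2 fold change of -0.48 did not pass (limma adjusted p = 0.143). None of the 5 tested genes listed as other superfamily genes, among them the adaptor gene Edaradd, was called. Eda2r was next by p-value with 0.39 (limma adjusted p = 0.614). The sheddase list held Adam10 and Adam17, whose enzymes cut such ligands and receptors from the surface, and the protease gene Furin. None of these 3 genes was called either. The nearest were Adam10 (0.61, limma adjusted p = 0.0698) and Adam17 (-0.31, limma adjusted p = 0.363).

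Some markers of the sorted cells and of other cells were called, beside the 13.8% of all tested genes. Of the 11 tested mTEC identity genes, the basal keratins Krt14 (log2 fold change 1.51) and Krt5 (0.59) were higher, and Aire (-0.56) and Cldn4 (-1.56) were lower, with the largest limma adjusted p of the 4 at 0.0475. Of 9 myeloid and dendritic markers, Adgre1 (-2.91), Itgam (-2.30) and Fcer1g (-1.63) were lower and Lyz2 (0.66) was higher (largest limma adjusted p 0.0328). The sum of the myeloid list was 8361 to 11841 normalized counts in Cre-positive and 6725 to 8564 in Cre-negative libraries (two-sided exact permutation test, p = 0.114, n = 3 and 4). Most of that sum was Lyz2, and the mean of the log2 values over the list differed by -0.86, with the opposite sign (exact permutation p = 0.0571, the smallest possible). Thy1 (-2.09, limma adjusted p = 0.0376) was lower among 11 thymocyte markers. Its groups overlapped, with Cre-positive 76 (212.3 counts) above Cre-negative 46 (205.3) and 48 (180.3). The other 10 were not called, 5 of the 11 lay below 0, and the median log2 fold change of the list was 0.13. The sum of the thymocyte list was 660.2 to 2664 in Cre-positive and 1091 to 1826 in Cre-negative libraries (exact permutation p = 0.80). No myeloid or thymocyte marker was at 0 in every library. Tnf, Lta and BAFF are known from lymphoid and myeloid cells too, and the part of such cells in their results was not tested.

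Of 6 fibroblast markers, the collagen genes Col1a1 (-2.63, limma adjusted p = 0.0330) and Col1a2 (-2.53, limma adjusted p = 0.00787) were lower. Dcn, the marker of that list with the highest counts and named after its values were seen, had 989 to 1171 normalized counts in Cre-positive and 562 to 890.4 in Cre-negative libraries and was not called (0.53, limma adjusted p = 0.0968). Among 5 cortical epithelial genes, the protease gene Ctsl was higher (1.46, limma adjusted p = 0.000358) and the chemokine gene Ccl25 was lower (-0.82, limma adjusted p = 0.0185). No gene was called among 6 endothelial markers (nearest Tie1, limma adjusted p = 0.246, and Cdh5, 0.356), 7 tested tuft markers (Alox5, 0.114, and Dclk1, 0.247) and 6 microfold markers (Ccl9, 0.173, and Gp2, 0.227). Tuft markers were nevertheless read in both groups, with summed levels of 684.5 to 1109.5 normalized counts in Cre-positive and 648 to 931 in Cre-negative libraries. Most of that sum was Gng13 and Dclk1 in every library. Gng13 had 282.1 to 403.8 counts in Cre-positive and 277.1 to 400 in Cre-negative libraries, and Dclk1 306.2 to 550.8 and 178.3 to 370.2. Il25 was below the minimum mean, with at most 2.1 and 9.2 counts. The tuft cell channel gene Trpm5 had 2.1 to 105.9 counts in Cre-positive and 22.5 to 54.8 in Cre-negative libraries.

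The authors' deposited table gives its own test, with the fold change as Cre-negative over Cre-positive. In it, 37 members have an adjusted p and 11 pass 0.05, beside 21.8% of all genes with an adjusted p there. Of the 8 members called here, 7 pass there too, all in the same direction, and Tnfrsf13c has no adjusted p in the authors' deposited table.

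Lta, Tnf, Fas, Tnfrsf12a and Tnfrsf13c were called in each of the 17 alternative settings. Tnfsf13 was called in 15 of them, Tnfrsf17 in 12 and Tnfrsf8 in 9. Without Cre-positive 76 or without Cre-positive 80, the count of members called higher was 1, with Tnfrsf12a left. Tnfsf13b, Tnfsf4, Tnfrsf11b and Tnfrsf9 were called as lower only in some alternatives, 9 members being lower with DESeq2, which called 12 members in either direction beside 19.5% of all genes it tested. The plot of fold changes over settings shows these 12 members.

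**Figure D4:**
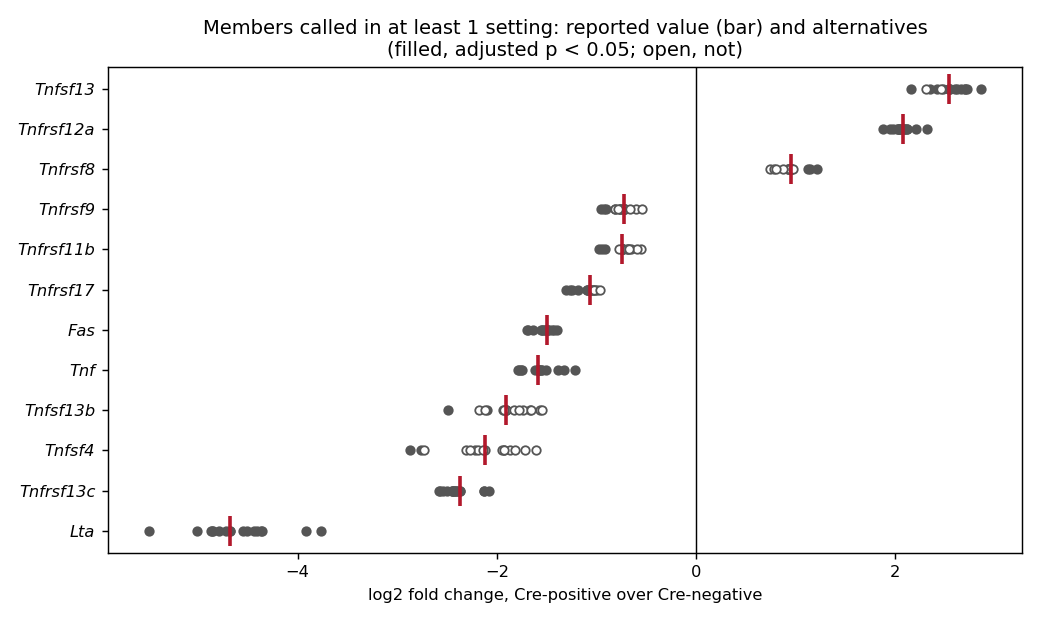
Log2 fold change, Cre-positive over Cre-negative, of the members called in at least 1 setting; the red bar is the reported value and points are the 17 alternatives, filled where the adjusted p was under 0.05. Every point of these 12 members lies on the same side of 0 as its reported value.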

How the data were processed

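RNA-seq of EPCAM-positive mTECs was taken as deposited in 1 table of 55536 genes and 7 samples. STAR 2.7.9a, DESeq2 and build GRCm39 are named in the submitters' processing notes. Start and end of 49995 of the 52489 genes shared with GENCODE M21 are nevertheless those of GRCm38. Neither the read counter nor its handling of strand is given in the sources used here. The deposited values, per the file headers, are normalized counts, a signal made by dividing counts by a size factor. The authors also deposited variance-stabilized log2 values and a log2 fold change, a fold ratio, a p-value and an adjusted p-value of their own test, and the GC percent of each gene. Their fold changes run Cre-negative over Cre-positive.

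The 22878 genes whose mean reached 5 normalized counts were tested with limma 3.58.1 (R 4.3.3) on log2(normalized count + 1), using its intensity trend. Genotype was the only term, and Benjamini-Hochberg adjustment ran over all tested genes. The count added before the log shrinks changes near 0. Reads were recovered from the normalized counts (100% of values whole within 0.0501) for totals and for edgeR 4.0.16, DESeq2 1.42.0 and limma-voom. No source used here mentions molecular identifiers. The 95% limits of fold changes come from the spread among libraries. On simulated data limma called 7 of 100 genes changed 2-fold and 55 of 100 changed 4-fold, with 8 false calls. There edgeR called 4 and 53 of them, with 6 false calls, and DESeq2 11 and 60, with 51 false calls. Only these genes were changed, among 22606 that limma tested there, whereas limma called 3150 of 22878 genes in the real data. The shares called in the simulation are therefore not those to expect in the real fit. The lack of a call is still not evidence that a gene was unchanged. Marker sums were compared by two-sided exact permutation tests, which with 3 against 4 cannot go below p = 0.0571. Library numbers 45 to 48 and 75 to 80 served as an alternative term.

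The members and lists were chosen with earlier results of these data known. Called members and the thymus-related members were named in full, the others by single values, and of each further list the called genes or the 2 with the smallest p. Lists covered TRAF adaptors, death domain effectors, the NF-kB arm, sheddases, other superfamily genes, and markers of mTECs, thymocytes, B cells, myeloid cells, fibroblasts, endothelium, cortical epithelium, tuft and microfold cells. Promoters came from RefSeq (GRCm38.p6). Exon lengths for levels per kb came from GENCODE M21.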

Additional observations from a re-analysis of the deposited data

Results flagged for a closer look

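Each of the 40 tested members was checked for a library far from the other 3 of the Cre-negative group, by the gap to its nearest neighbour as a share of the group's range. In 4 members this share exceeded the 95% critical value of Dixon's test for 4 samples, and chance alone passes about 1 in 20 groups. Tnfrsf12a was highest in Cre-negative 77, at 134.4 normalized counts (share 0.845), still below every Cre-positive library. Tnfrsf13c was highest in Cre-negative 75, at 145 (share 0.865), on the side away from the Cre-positive libraries. Ltbr was highest in Cre-negative 46, at 135.8 (share 0.857). Tnfrsf1a was highest in Cre-negative 48, at 382.2 (share 0.841), and without that library its log2 fold change was 0.20 in place of -0.04, in neither case called by limma. The cause of these single high values was not tested.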

How the results depend on the processing

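Over 670 pairs of a member and an alternative setting, 625 kept the direction and the side of the threshold, 15 lost the call, 14 gained it and 16 turned direction, none of the last called. Members called lower numbered 9 with DESeq2 and 8 with scaling by library totals, against 5, while calls lower over all genes numbered 2864 of 22558 and 2638 of 23114 there, against 2084 of 22878. Over all genes, calls lower numbered 1352 with limma-voom, calls higher numbered 583 with scaling by library totals, and with a Y-linked covariate 558 were higher and 1351 lower. Scaling by library totals moved the median over all genes to -0.30 on the log2 scale, against -0.10. Leaving out each library in turn gave 1 to 3 members higher, 4 to 6 members lower, 600 to 1008 genes higher (630, 669 and 600 without Cre-positive 45, 76 and 80, and 675 without Cre-negative 46) and 1315 to 1759 genes lower (the lowest without Cre-negative 46). The adjusted p of Tnfrsf8 was 0.0621 with no filter, 0.0533 with edgeR and 0.115 with scaling by library totals, and 0.0678 to 0.149 without Cre-positive 76 or 80 or Cre-negative 46, 75 or 77. The causes of these shifts were not tested.

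Turned directions were Cd70 at -0.14 and Tnfrsf11a at -0.0566 (library totals), Tnfrsf1a at 0.0439 with the number range term and 0.28 with the Y-linked covariate, and Tnfrsf21 at 0.34 with that covariate. With single libraries left out, uncalled log2 fold changes ran from -0.60 (without Cre-negative 48) to 0.13 (without 77) for Ltb, -0.65 (without Cre-negative 48) to 0.0924 (without Cre-positive 45) for Eda, -0.0026 (without Cre-positive 80) to 0.16 (without 45) for Cd70 and -0.16 (without Cre-negative 77) to 0.0633 (without 75) for Tnfsf9. Likewise Tnfrsf14 ran from -0.0288 (without Cre-positive 45) to 0.60 (without 80), Tnfrsf21 from -0.36 (without Cre-negative 75) to 0.24 (without 48) and Tnfrsf1a from -0.22 (without Cre-positive 45) to 0.30 (without 80). Mean log2 differences of marker lists were -0.25 for thymocytes, -0.9997 for B cells, -0.86 for myeloid cells, -0.84 for fibroblasts and -0.32 for cortical epithelium, each opposite in sign to the difference of sums. No paired analysis was possible because the groups share no library number. Few reads limit what can be said of the low ligands. Tnfsf8, Tnfsf14, Tnfsf4 and Fasl had 6 or fewer reads in every Cre-positive library, and the cause was not tested.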

Other observations

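The libraries carry numbers in 2 ranges, 45 to 48 and 75 to 80, and each range holds both genotypes. All 8 called members had the same sign of the log2 difference, Cre-positive minus Cre-negative, in both ranges. Since their groups did not overlap, any split holding both genotypes gives that sign, so the agreement is no check of the calls. For Fas the differences were -1.56 and -1.53, for Tnf -1.48 and -1.52, and for Tnfrsf12a 1.71 and 2.21. Some uncalled members differed in sign between the ranges. Ltb had 0.78 in the first range and -1.12 in the second, Tnfrsf23 had 1.25 and -0.39, and Tnfrsf21 had -0.77 and 0.51. Tnfsf14 had -4.51 and 0.53, on 24 reads or fewer in every library. With 1 Cre-positive library in the first range, these differences between ranges were not tested.

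Members lie in groups on several chromosomes, with 9 on chromosome 4 and 8 on chromosome 17. Of these, 1 was called on chromosome 4 (Tnfrsf8) and 3 on chromosome 17 (Lta, Tnf and Tnfrsf12a), beside 13.8% of all tested genes. With so few members per chromosome, whether calls gather on any of them was not tested. None of the 3 receptors on chromosome 6 (Cd27, Ltbr and Tnfrsf1a) or of the 3 on chromosome 7 (Tnfrsf26, Tnfrsf22 and Tnfrsf23) was called. Cd70 and Tnfsf9, the ligands with the highest levels per kb, lie 38239 bp apart on chromosome 17. In 1 of the promoters of Tnfrsf9 the kB and TGGGAA matches overlap, the kB motif running from -43 to -33 and TGGGAA from -37 to -32.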
